A study of Homo sapiens with 6 samples.

Results

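The RAB GTPases and the TBC1D genes were taken as all protein-coding genes on chromosomes 1-22 and X whose symbol is RAB or TBC1D followed by a number, with optional letters. This gave 109 of 19974 genes. They comprised 64 genes for RAB GTPases, 43 TBC1D genes, and 2 genes named after a RAB that encode no GTPase: RAB3IP, an exchange factor, and RAB5IF, a RAB5-interacting factor. A gene was scored in a library when at least 1 bp of a peak lay within 1000 bp of either gene end. Such a peak is called a gene-end peak here. The rule used no measured value.

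The assay was ATAC-seq, which uses a transposase to cut accessible DNA and tag it for sequencing, and it was run on U937, an established cell line of human monocytic origin. The comparison asked how open chromatin differs between U937 cells with and without the neutrophil serine proteases. The 3 control lines had been transduced with control plasmids. The 3 ΔNSPs lines were independent clones depleted at once of ELANE, PRTN3 and CTSG, the genes of neutrophil elastase, proteinase 3 and cathepsin G. All 6 lines had been kept in RPMI medium with 10% fetal bovine serum under 500 µg/ml geneticin, a selection drug. All had then been given DNase at 200 units/ml and 37 °C for 30 min and frozen with 5% DMSO. The controls are described as lines and the mutants as clones, and cloning as such cannot be told apart from protease loss. No batch is named in the labels, and one that ran along the groups cannot be told apart from them either. P-values measure the spread between these libraries.

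RAB GTPases are molecular switches on the cytosolic face of membranes. Exchange factors load them with GTP, which lets them recruit motors, tethers and fusion factors. GTPase-activating proteins, most of which carry a TBC domain as the TBC1D proteins do, return them to the GDP form, and a chaperone called GDI then extracts the prenylated GTPase from the membrane. Each RAB marks particular compartments, and in myeloid cells they direct phagosome maturation and the release of the granules in which the serine proteases are stored.

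Each library was represented by its own peak list on build GRCh38. The lists held 14262, 24981 and 2188 peaks on chromosomes 1-22, X and Y in clones 1, 2 and 3, and 13, 4 and 2 in control lines 1, 2 and 3. A list holds no value where no peak was called, so a gene without a peak was not shown to be closed, and a peak is no measure of expression. Read totals were unknown. The lowest −log10 p was 7.45 to 8.0 in the control lists and 4.86 to 5.75 in the clone lists, so a control peak needed a smaller p. Of 15 monocytic marker genes, CD68 had a gene-end peak in 3 clones, which it shared with EIF4A1, and ITGAM in 2. CD14, CD33, CD4, CEBPA, CEBPB, CSF1R, FUT4 and ITGAX had one in 1 clone, and FCGR1A, IRF8, LYZ, MPO and SPI1 in none. Of 14 markers of other cell types, KLF1 had a peak in 3 clones, CD3E in 2, CD79A in 1 and 11 in none. By this measure 13.3% of the monocytic and 14.3% of the other markers were in 2 or more clones. Both shares were below the 23.3% of all protein-coding genes. In 1 or more clones were 66.7% of the monocytic and 21.4% of the other markers, against 46.6% of all genes. The check thus depended on the number of clones asked for.

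Below are the DNA sequences that the peaks of all 3 clones covered at the start of 8 genes, because these are the sites on which the account of individual genes rests. They are RefSeq sequence of GRCh38.p14, written 5′ to 3′ on the gene's strand, cut to those of the 250 bases before the gene start that a peak of each clone overlapped. Peaks that reached farther upstream, as at RAB8A, are shown only up to that limit, and genes in 3 clones without such overlap in the table's bases have no stretch here. The last is a contrast: the 120 bases before RAB40A, the GTPase promoter with the fewest CpG dinucleotides among those without a peak in any clone. Capitals mark matches, on either strand, to 7 short motifs: ETS (CCGGAA or TTCCGG), SP/KLF (GGGCGG or CCGCCC), NFY (CCAAT or ATTGG), NRF1 (GCATGCGC or GCGCATGC), YY1 (ATGGCGG or CCGCCAT), E-box (CACGTG, the same on both strands) and CRE (TGACG or CGTCA). Where 2 matches overlap, as in the SP/KLF pair of RAB11B and the CRE pair of RAB5IF, they run together as 1 stretch of capitals. A match describes the letters and is not a bound site.
RAB5A chr3:19946955-19947081 (+ strand): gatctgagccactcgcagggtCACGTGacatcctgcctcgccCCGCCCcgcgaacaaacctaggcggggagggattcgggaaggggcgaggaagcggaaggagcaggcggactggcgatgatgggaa
RAB5B chr12:55973786-55973926 (+ strand): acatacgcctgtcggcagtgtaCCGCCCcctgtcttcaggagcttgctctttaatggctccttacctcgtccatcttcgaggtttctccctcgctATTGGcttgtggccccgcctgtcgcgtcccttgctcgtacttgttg
RAB1B chr11:66268439-66268604 (+ strand): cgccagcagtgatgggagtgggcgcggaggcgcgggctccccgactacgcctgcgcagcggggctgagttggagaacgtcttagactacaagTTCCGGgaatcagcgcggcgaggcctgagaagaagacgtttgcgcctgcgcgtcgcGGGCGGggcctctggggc
RAB8A chr19:16111639-16111857 (+ strand): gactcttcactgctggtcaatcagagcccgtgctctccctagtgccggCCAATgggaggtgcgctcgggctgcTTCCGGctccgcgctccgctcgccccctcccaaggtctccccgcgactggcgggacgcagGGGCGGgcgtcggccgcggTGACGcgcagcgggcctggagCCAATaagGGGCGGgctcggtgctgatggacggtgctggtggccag
RAB11B chr19:8390110-8390248 (+ strand): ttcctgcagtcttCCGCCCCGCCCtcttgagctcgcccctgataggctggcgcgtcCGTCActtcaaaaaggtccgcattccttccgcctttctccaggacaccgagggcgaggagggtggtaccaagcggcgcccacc
RAB3A chr19:18204043-18204292 (− strand): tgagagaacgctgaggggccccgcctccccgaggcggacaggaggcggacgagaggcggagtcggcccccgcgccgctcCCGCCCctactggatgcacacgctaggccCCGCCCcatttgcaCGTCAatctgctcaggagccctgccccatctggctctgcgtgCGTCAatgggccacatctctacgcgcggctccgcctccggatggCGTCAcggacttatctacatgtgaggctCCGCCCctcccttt
RAB5IF chr20:36605594-36605778 (+ strand): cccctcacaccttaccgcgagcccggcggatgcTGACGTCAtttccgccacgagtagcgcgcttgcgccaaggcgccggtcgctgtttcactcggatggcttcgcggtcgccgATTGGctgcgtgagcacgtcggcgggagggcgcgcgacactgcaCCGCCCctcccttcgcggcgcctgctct
TBC1D23 chr3:100260786-100260915 (+ strand): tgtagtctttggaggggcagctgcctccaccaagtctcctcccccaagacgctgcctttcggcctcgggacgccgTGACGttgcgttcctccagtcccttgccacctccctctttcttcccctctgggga
RAB40A chrX:103519490-103519609 (− strand): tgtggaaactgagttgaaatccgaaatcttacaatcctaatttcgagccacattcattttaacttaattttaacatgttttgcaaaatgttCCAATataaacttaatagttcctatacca

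The 8 covered stretches were 127 to 250 bases long, with a GC content between 57.4% (RAB5B) and 72.1% (RAB8A). SP/KLF letters stood in 7 of the 8, and the covered bases of TBC1D23 held only a CRE match. The 120 bases of RAB40A had a GC content of 29.2% and 2 CpG. The covered stretches held from 7 CpG (TBC1D23) to 29 (RAB5IF). RAB40A was chosen for its few CpG, so its low number followed from the choice and does not describe genes without a peak. In the longer promoter sequences compared below, 17 GTPases in no clone had 2 to 52 CpG and 31.7% to 82.7% GC. For 22 GTPases in 2 or more clones the ranges were narrower, 12 to 45 CpG and 48.3% to 78% GC.

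Gene-end peaks were found at the RAB and TBC1D genes in every clone and in no control line. Clone 1 had them at 53 of the 109 genes, clone 2 at 44 and clone 3 at 12, or 48.6%, 40.4% and 11.0%. All 3 control lines had 0. The share over all protein-coding genes was 39.1% in clone 1, 29.6% in clone 2 and 6.55% in clone 3, and 0.00501%, 0.0% and 0.0% in control lines 1, 2 and 3. A control list of at most 13 peaks thus gave almost no gene a peak, whichever gene it was, and whether these short lists are complete was not tested. The control peak nearest to any of these genes lay 2487 kb from TBC1D10B, in control line 2. The clones had a mean of 36.3 ± 21.5 such genes (SD, n = 3) against 0 in the controls. The difference of 1.5 in log10(count + 1) had a two-sided exact permutation p of 0.1, the smallest that 20 assignments of the libraries allow, so the design cannot reach 0.05.

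In 36 of the 109 genes, 2 or more clones had a gene-end peak and no control line did. They were 25 of the 64 GTPases (39.1%), 10 of the 43 TBC1D genes (23.3%) and RAB5IF. The same rule held for 23.3% of all protein-coding genes. All 3 clones had a peak at 6 GTPases (9.38%), 5 TBC1D genes (11.6%) and RAB5IF, and at 5.4% of all genes. At least 1 clone had one at 40 GTPases, 20 TBC1D genes and RAB5IF, and at 46.6% of all genes. No clone had one at 24 GTPases (37.5%), 23 TBC1D genes (53.5%) and RAB3IP, and at 53.4% of all genes. These counts rest on clones 1 and 2: without either of them 6 GTPases and 5 TBC1D genes remained in 2 clones, or 9.38% and 11.6%, against 5.63% of all genes without clone 1 and 6.21% without clone 2. Without clone 3 the counts stayed at 25 and 10.

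The share of GTPases with a gene-end peak was 51.6%, 50% and 9.38% in clones 1, 2 and 3, with a mean of 37.0 ± 23.9% (SD, n = 3). That of the TBC1D genes was 44.2%, 25.6% and 11.6%, with a mean of 27.1 ± 16.3% (SD, n = 3). GTPases were ahead by 7.38 percentage points in clone 1 and 24.4 in clone 2, and the difference in clone 3 was −2.25. The mean difference of 9.85 ± 13.5 percentage points (SD, n = 3) was smaller than its spread over the clones, with an exact two-sided sign-flip p of 0.5, where the smallest possible is 0.25. It also turned on one gene family. TBC1D3, a cluster of near-identical copies particular to primates, supplied 11 of the 43 TBC1D genes and had no peak in any library. Reads from such copies may not be placed uniquely, so their score is uncertain. Without them the TBC1D shares were 59.4%, 34.4% and 15.6%, the differences −7.81, 15.6 and −6.25 percentage points, and the mean difference 0.521 (exact sign-flip p = 1). The share in 2 or more clones was then 31.3%, or 10 of 32 TBC1D genes. The plot of shares by clone shows both versions.

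**Figure D1:**
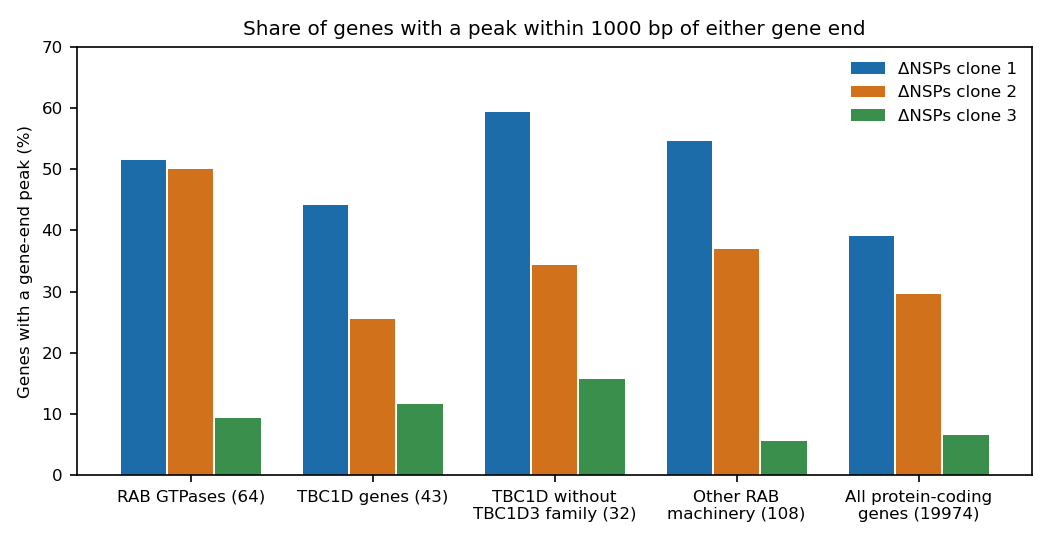
Percent of genes with a peak within 1000 bp of either gene end in each ΔNSPs clone (colours), for the RAB GTPases, the TBC1D genes with and without the TBC1D3 family, other RAB machinery and all protein-coding genes; numbers of genes are in brackets, each bar is 1 library, and the control lines, at or near 0, are not drawn. GTPases reached 51.6%, 50% and 9.38% in clones 1, 2 and 3, and TBC1D genes 44.2%, 25.6% and 11.6%, or 59.4%, 34.4% and 15.6% without TBC1D3.

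The genes of clone 3 lay within those of the other clones, while clones 1 and 2 each had genes of their own. All 12 genes found in clone 3 were also found in clones 1 and 2 (100%). Over all protein-coding genes this was so for 1079 of the 1308 in clone 3, or 82.5%. Clones 1 and 2 alone shared another 24 genes, 19 GTPases and 5 TBC1D genes. Clone 1 was the single clone at 17 genes (15.6%) and clone 2 at 8 (7.34%), close to the 16.1% and 7.10% of all genes. In clone 1 these were more often TBC1D genes (9, with 8 GTPases) than in clone 2 (1, with 7 GTPases), a difference that was not tested. At the 36 genes in 2 or more clones, the peaks of different clones overlapped in all 60 pairs of clones. Over all genes called by the same rule, 92.1% of the pairs did. The window of another protein-coding gene held one of the peaks at 11 of the 36 genes (30.6%), against 41.7% of the 4652 genes called in all, and such a peak cannot be assigned to a single gene.

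In what follows, a fold is the authors' fold enrichment at the peak's summit over the local background, and a q the authors' adjusted p, given as −log10 q. Where a gene had several peaks in a library, the one with the highest −log10 q is given. The pile-up is the number of reads stacked at the summit that the fold and p together imply. The GTPases are taken along the route from the endoplasmic reticulum outward and the TBC1D genes after them. The role lists were drawn up by hand from general knowledge. They are short, their counts in 2 or more clones stand against 23.3% of all protein-coding genes, and differences between lists were not tested.

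Early endosome GTPases had the largest share of their list in 2 or more clones, 5 of 8 genes (62.5%), against 23.3% of all genes. RAB5A, RAB5B and RAB5C are the RAB5 isoforms that drive the fusion of endocytic vesicles, and all of them were among these 5. RAB5B (chr12:55973949-55996683) had a fold of 2.47 in clone 1, 4.78 in clone 2 and 2.42 in clone 3, with −log10 q of 10.2, 36.3 and 4.75 and pile-ups of 92, 116 and 58 reads. Clone 2 stood above the other clones there, and these peaks, over the stretch printed above, also reach the window of CDK2. A separate clone 2 peak at the far end, with a fold of 4.25, is shared with SUOX. RAB5A (chr3:19947097-19985175) had folds of 3.03, 3.75 and 1.88, with −log10 q of 13.6, 16 and 2.17. Its clone 3 peak was just past the threshold of the lists, and its window overlaps that of EFHB. RAB5C was in clones 1 and 2 only, with folds of 3.07 and 7.59, the latter the highest among all 44 genes in clone 2. RAB20, which acts in phagosome maturation, and RAB21, which moves integrins, were in clones 1 and 2. RAB17, known from polarised epithelia, was in clone 1 alone, and RAB22A and RAB31 were in none.

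Of the 15 GTPases of the ER to Golgi route and the Golgi, 6 (40%) were in 2 or more clones. RAB1B (chr11:66268639-66277492), which brings vesicles from the ER to the Golgi, was the one found in all 3, with folds of 4.20, 4.13 and 3.06 and pile-ups of 37, 30 and 35 reads. Clones 1 and 2 were nearly level, and the window is shared with KLC2. Its sister RAB1A was in clones 1 and 2 with lower folds on more reads, 2.89 and 2.82 on pile-ups of 94 and 73. RAB2B, RAB6A, the GTPase of retrograde Golgi traffic, RAB18, found on lipid droplets and the ER, and RAB30 were also in clones 1 and 2. RAB2A and RAB6B were in clone 1 alone. RAB6C and RAB6D, which are close copies of RAB6A without its introns, were in none, and neither were RAB19, RAB33A, RAB33B, RAB41 and RAB43.

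Among the 13 GTPases of recycling endosomes and delivery to the plasma membrane, 7 (53.8%) were in 2 or more clones. Only RAB15 and RAB25 were in none. RAB8A (chr19:16111889-16134234), which steers vesicles from the Golgi to the plasma membrane and the cilium, had folds of 2.59, 3.77 and 2.61, on pile-ups of 58, 66 and 73 reads. RAB11B (chr19:8390360-8404434), a GTPase of the recycling endosome, had folds of 2.95, 3.89 and 2.16, with −log10 q of 4.78, 22.4 and 4.74. At both genes clone 2 was highest, and neither peak reached another gene's window. RAB10, which delivers the glucose transporter GLUT4 to the surface, had folds of 2.90 and 7.32 in clones 1 and 2, with −log10 q of 13.2 and 37.7. Its summits lay at 711 and 715 bp inside the annotated gene, so no clone was scored with a window of 500 bp. RefSeq's promoter table places the start of RAB10 799 bp farther in, and both peaks lie over that promoter. RAB11A had folds of 4.49 and 4.38 in the same clones. RAB4B, of the fast recycling route, had folds of 3.47 and 4.18 at summits of −137 and −768 bp from its start (negative is upstream), 2 sites at which the other clone had 2.65 and 3.98, and it shares its window with MIA. RAB8B and RAB14 were in clones 1 and 2. RAB12 and RAB35 were in clone 1 alone and RAB4A and RAB13 in clone 2 alone, so paralogs differed: RAB4B was in 2 clones and RAB4A in 1.

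Of the 12 late endosome, lysosome and phagosome GTPases, 6 were in no clone and none was in all 3. In 2 or more clones were 3 of 12 (25%), near the 23.3% of all genes. The 3 were RAB7A, the GTPase of late endosomes and lysosomes, with folds of 3.83 and 3.56 in clones 1 and 2, RAB29, which recruits the kinase LRRK2, with 3.84 and 5.56, and RAB24, an autophagy GTPase, with 5.75 and 5.33. At RAB24 the clone 1 peak lay at the gene start and the best clone 2 peak at the other end of the gene, where clone 1 had a fold of 4.12. The peak at the start also reaches the window of PRELID1, and those at the other end reach that of NSD1. RAB9A was in clone 1 alone, and RAB38 and RAB39A in clone 2 alone. RAB7B, RAB9B, RAB32, RAB34, RAB36 and RAB39B were in none.

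The regulated secretion list holds the GTPases nearest to granule release. Of its 9 genes 2 were in 2 or more clones (22.2%), near the 23.3% of all genes. RAB3A (chr19:18196784-18204042), known for the docking of synaptic vesicles, had folds of 2.57, 2.75 and 3.43 in clones 1, 2 and 3, with −log10 q of 7.60, 10.1 and 17.9 and pile-ups of 65, 74 and 96 reads. It was the only one of the 12 genes in all 3 clones with its highest fold in clone 3. Its family members RAB3B and RAB3D were in no clone and RAB3C was in clone 2 alone. RAB44, a large atypical RAB, had folds of 3.89 and 4.91 in clones 1 and 2. RAB27A, which releases the granules of neutrophils and cytotoxic lymphocytes, and RAB27B were in clone 2 alone, with folds of 5.43 and 3.79 on pile-ups of 13 and 14 reads. Both clone 2 peaks of RAB27A also reach the windows of PIGB and PIGBOS1. RAB26 and RAB37 were in none.

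The remaining 7 GTPases gave 2 genes in 2 or more clones (28.6%). Both belong to the RAB40 group, whose proteins carry a SOCS box for ubiquitin ligases. RAB40C had folds of 5.11 and 6.69 in clones 1 and 2, with −log10 q of 11.4 and 30.1, and RAB40B 3.80 and 5.39. Their X-linked copies RAB40A and RAB40AL were in none. RAB23 and RAB28, which act in ciliary routes, were in clone 1 alone, and RAB42 was in none. Of the 9 RAB and TBC1D genes on the X chromosome, 1 was in 2 clones (TBC1D25), 1 in clone 1 alone (RAB9A) and 7 in none. Over all 848 protein-coding genes of the X chromosome 8.84% were called.

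Families of paralogs, picked by hand and grouped by symbol, differed in how fully they were represented. Others were not tallied, such as RAB2, RAB4, RAB9, RAB33 and RAB39, each with a member in fewer than 2 clones. RAB1, RAB5, RAB8 and RAB11 had every member in 2 or more clones (2 of 2, 3 of 3, 2 of 2 and 2 of 2), as did TBC1D2 with TBC1D2B. RAB3 had 1 of 4, RAB6 1 of 4, RAB40 2 of 4, TBC1D10 2 of 3, RAB7 1 of 2 and RAB27 0 of 2. Over all protein-coding genes the share was 23.3%, and with 2 to 4 genes a family these differences were not tested. The plot of clones by role shows that the lists of the early endosome and of recycling held the fewest genes without a peak, relative to their size, among the GTPase lists.

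**Figure D2:**
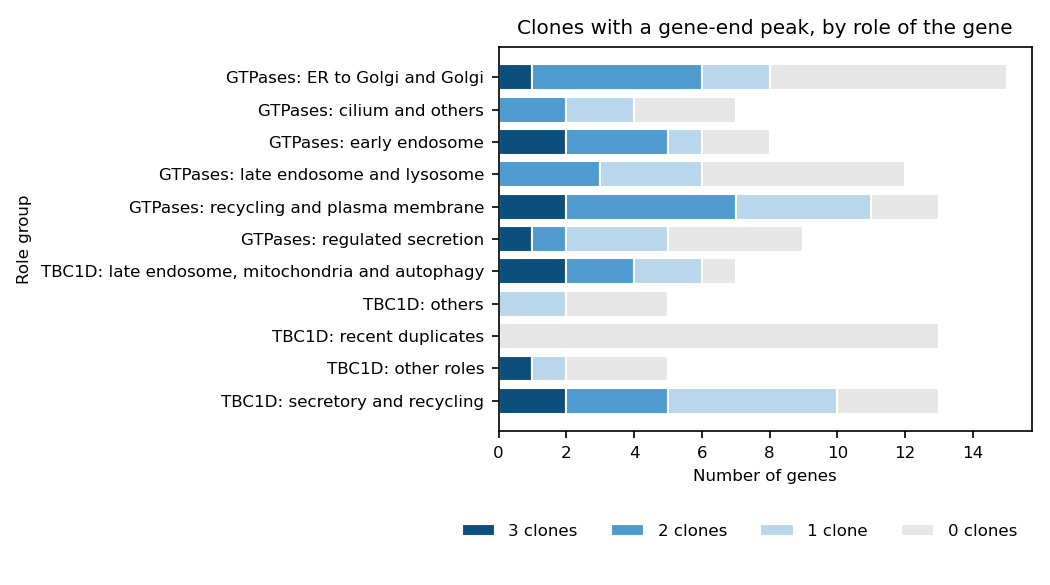
Number of genes (horizontal axis) in each role list, divided by the number of ΔNSPs clones in which a gene-end peak was found (shades, darkest for 3 clones). In 2 or more clones were 5 of 8 early endosome GTPases, 7 of 13 of recycling and the plasma membrane, 6 of 15 of the ER to Golgi route, 3 of 12 of late endosomes and 2 of 9 of regulated secretion, and 0 of 13 recent TBC1D duplicates. Over all protein-coding genes the share was 23.3%.

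TBC1D genes of the secretory and recycling routes had 5 of 13 (38.5%) in 2 or more clones. TBC1D10B (chr16:30357102-30370494) and TBC1D10C (chr11:67403913-67410090) encode GTPase-activating proteins related to EPI64, for which RAB27A and RAB35 are known substrates. TBC1D10B had folds of 2.52, 3.77 and 2.28 on pile-ups of 98, 62 and 71 reads, at summits of −409, −679 and −539 bp from its start, in a window shared with MYL11. TBC1D10C, also called carabin and known as an inhibitor of calcineurin, had higher folds on fewer reads: 5.32, 6.49 and 3.76 on 23, 15 and 19. The clone 2 value is from a peak at the other end of this short gene, and its clone 2 peak at the end where the other clones had theirs had a fold of 5.05. Their paralog TBC1D10A was in no clone. TBC1D4, the Akt substrate that restrains GLUT4 delivery, had folds of 5.01 and 3.88 in clones 1 and 2, but from different sites: at the clone 2 site clone 1 had 2.57. Its relative TBC1D1 was in none. TBC1D20, the ER protein that inactivates RAB1 and RAB18, had 4.0 and 2.26, and TBC1D22B 2.10 and 2.47, the first of these the lowest of all 53 genes in clone 1. TBC1D22B shares its window with TMEM217 and TMEM217B. TBC1D9B, TBC1D13, TBC1D14, TBC1D16 and TBC1D30 were in clone 1 alone and TBC1D22A was in none.

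The late endosome, mitochondria and autophagy list of TBC1D genes had 4 of 7 (57.1%) in 2 or more clones and only TBC1D12 in none. TBC1D17 (chr19:49877702-49888750), found with TBC1D15 on mitochondria, had folds of 3.68, 3.55 and 2.80 and −log10 q of 13.9, 13.0 and 3.86. The clone 2 and 3 values and another clone 1 peak, with a fold of 3.56, lie in a window shared with AKT1S1. At the site of the best clone 1 peak clone 2 had a fold of 3.52. TBC1D2B (chr15:77994985-78077711) had folds of 4.09, 5.87 and 3.25 and −log10 q of 11.4, 19.4 and 5.73. Its peaks lay at the far end of the gene, with summits at 83509, 83536 and 83493 bp from the gene start against a gene span of 82727 bp, so they say nothing about its start. TBC1D2, which inactivates RAB7, had folds of 3.99 and 2.89 in clones 1 and 2. TBC1D25, which acts on RAB33B in autophagy, had 2.90 and 3.93, with −log10 q of 2.26 and 4.65. TBC1D5, a regulator of RAB7 that binds retromer, was in clone 1 alone, and TBC1D15 in clone 2 alone.

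TBC1D genes whose products do not mainly inactivate RABs had 1 of 5 (20%) in 2 or more clones. It was TBC1D23 (chr3:100260992-100325238), which lacks the catalytic residues and links golgins to arriving vesicles. TBC1D23 had the highest −log10 q of the whole group in clones 1 and 2, 22.5 and 49.2, and 6.74 in clone 3, with folds of 3.65, 6.43 and 2.43 and pile-ups of 102, 117 and 76 reads. Its summits lay at almost the same base in each clone, at −131, −132 and −132 bp from the gene start. TBC1D7, a subunit of the TSC complex, was in clone 1 alone, and TBC1D24, TBC1D31 and TBC1D32 were in none. Of the 15 recent duplicates listed, 13 matched a gene and all 13 were in no clone, the 11 TBC1D3 copies with TBC1D26 and TBC1D28. Of the last 5 TBC1D genes, TBC1D8 and TBC1D9 were in clone 1 alone and TBC1D8B, TBC1D19 and TBC1D21 in none.

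RAB5IF (chr20:36605779-36612557), which is no GTPase, was in all 3 clones with folds of 3.61, 6.99 and 4.61 and −log10 q of 8.21, 21.2 and 13.3. Clone 1 was the lowest there. These peaks, at the gene start, reached no other window. A further clone 2 peak at the far end, with a fold of 3.88, is shared with SLA2 and the read-through gene TGIF2-RAB5IF.

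Median folds did not set the GTPases and TBC1D genes apart from each other or from other genes in the same direction in each clone. The median fold was 3.44 for GTPases, 3.68 for TBC1D genes and 3.55 for all protein-coding genes with a gene-end peak in clone 1. It was 4.12, 3.77 and 3.79 in clone 2 and 2.52, 2.80 and 2.96 in clone 3. The median −log10 q of the RAB and TBC1D genes together was above that of all genes with a gene-end peak. It was 7.27, 7.51 and 4.99 in clones 1, 2 and 3, against 5.64, 6.39 and 3.79. None of these differences was tested. The order of the clones was similar across genes. Of the 12 genes in all 3 clones, 9 had their lowest fold in clone 3 and the other 3 in clone 1, while 9 had their highest in clone 2, 2 in clone 1 and 1, RAB3A, in clone 3. Of the 36 genes, all of which were in clones 1 and 2, the fold was higher in clone 2 at 26 (72.2%) and the peak narrower there at 31 (86.1%). Over the 4446 genes found in both clones these shares were 61.0% and 90.5%. These tallies take the best peak of each clone, which at RAB4B, RAB20, RAB24, TBC1D4, TBC1D10C and TBC1D17 lay at different sites. Where the peaks of clones 1 and 2 overlapped, which they did at each of the 36 genes, the fold was higher in clone 2 at 27 (75%), against 61.7% of 4046 genes. Over whole lists the median fold was 3.54, 4.16 and 3.35 and the median width 251, 99 and 171 bp in clones 1, 2 and 3, and their part in the folds of these genes was not tested. The plot of peak height by gene shows each value.

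**Figure D3:**
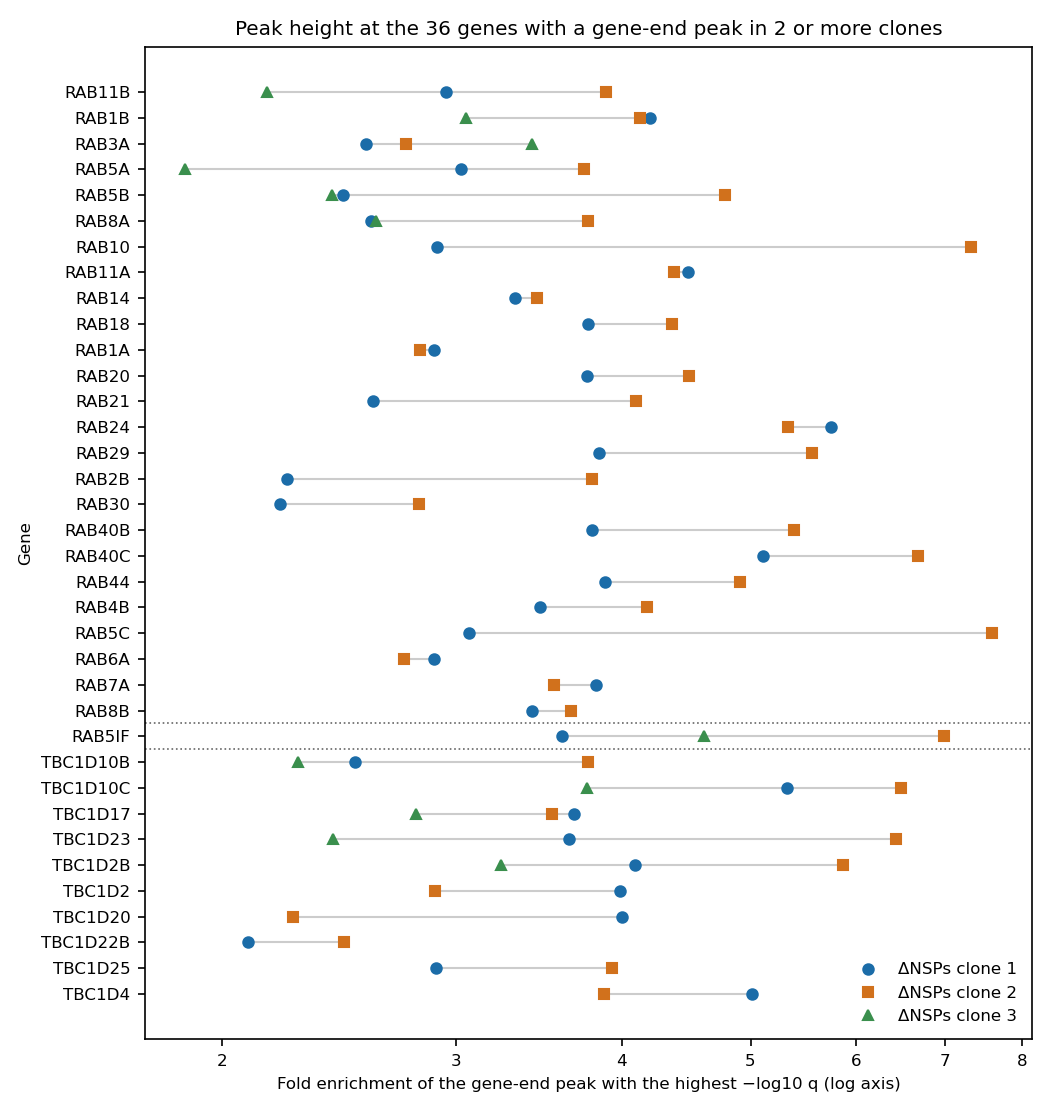
Fold enrichment of the best gene-end peak (log axis) at the 36 genes with a peak in 2 or more ΔNSPs clones, with 1 symbol per clone and a grey line over the range; dotted lines set RAB5IF apart from the GTPases above and the TBC1D genes below. Values run from 1.88 (RAB5A, clone 3) to 7.59 (RAB5C, clone 2), and clone 3 is the highest only at RAB3A; at RAB4B, RAB20, RAB24, TBC1D4, TBC1D10C and TBC1D17 the points of clones 1 and 2 come from different sites.

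Peaks sat at gene starts. The strand was known for 88 of the 109 genes, through the RefSeq promoter table. The best peak lay at the start at 41 of 42 of these genes in clone 1, 35 of 37 in clone 2 and 9 of 10 in clone 3. The exceptions were TBC1D2B in each clone and RAB24 in clone 2. Over all genes with a known strand the start held 93.8%, 90.1% and 90.8% of the best peaks in clones 1, 2 and 3. The median summit at the start was at −83, −106 and −172 bp in clones 1, 2 and 3, against −50, −70 and −96 bp over all genes. The summit was upstream of the start at 29 of 41, 27 of 35 and 9 of 9 genes, against 61.4%, 71.7% and 71.1% of all genes.

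**Figure D4:**
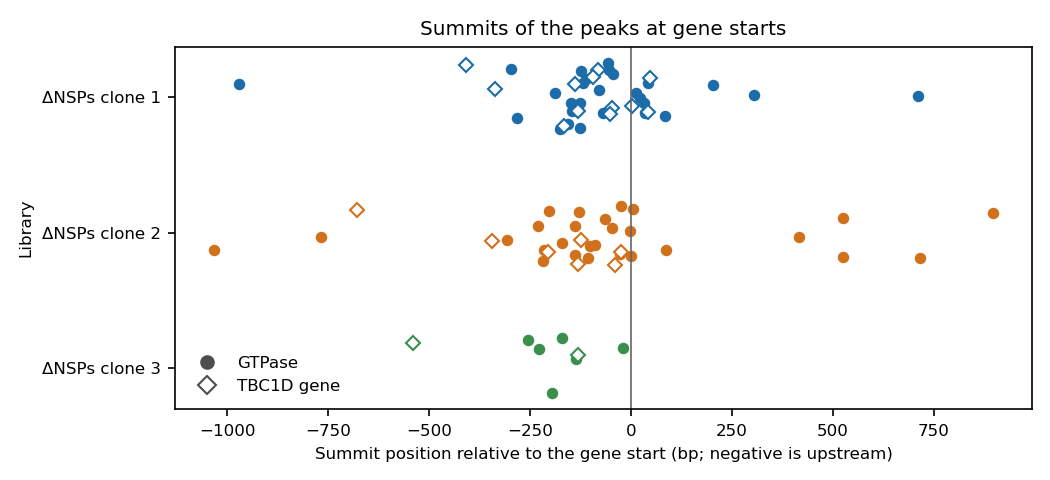
Position of the summit of the best peak relative to the annotated gene start in bp (horizontal axis, negative is upstream), 1 row per ΔNSPs clone, for GTPases (filled circles) and TBC1D genes (open diamonds) of known strand with the peak at the start; vertical scatter within a row has no meaning. Summits of clones 1, 2 and 3 have medians of −83, −106 and −172 bp over these genes with RAB5IF, and all 9 of clone 3 lie upstream.

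The window of 1000 bp left some genes just in and others just out. The farthest peak counted was that of RAB27A in clone 2, 995 bp from the gene end, followed by that of RAB39A in the same clone at 944 bp. Both genes had a nearer peak in that clone as well, at 51 and 176 bp. RAB17 in clone 1 (896 bp) and RAB3C and RAB20 in clone 2 (861 and 840 bp) were scored there through such a far peak alone. Just outside, RAB34 had peaks in all 3 clones at 1145, 1157 and 1310 bp, with folds of 4.31, 4.75 and 3.5. RAB26, a GTPase of secretory granules, had peaks in all 3 clones at 1286, 1247 and 1292 bp, with folds of 2.68, 5.31 and 2.25. RAB37, found on mast cell granules, had a peak in clone 1 at 1065 bp with a fold of 2.84. With 2500 bp RAB34, RAB26 and RAB3D went from none to all 3 clones and RAB7B and TBC1D21 from none to 2. The counts in 2 or more clones were then 29 GTPases (45.3%) and 13 TBC1D genes (30.2%), against 27.1% of all genes.

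Inside the gene bodies, which the rule for gene ends did not use, GTPases held more peaks per length than TBC1D genes in each clone. Bodies were counted without the windows at the ends. GTPase bodies held 29, 48 and 4 peaks in clones 1, 2 and 3, or 0.948, 1.57 and 0.131 per 100 kb. TBC1D bodies held 11, 29 and 1 peaks, or 0.304, 0.80 and 0.0276 per 100 kb. Over all protein-coding genes there were 0.338, 0.802 and 0.0488 per 100 kb, close to the TBC1D genes in clones 1 and 2. The share of genes with a body peak did not follow the same order: it was 26.6%, 34.4% and 6.25% for GTPases, 20.9%, 34.9% and 2.33% for TBC1D genes and 14.8%, 25.1% and 2.64% for all genes in clones 1, 2 and 3. The median gene span was 30.0 kb for GTPases, 35.0 kb for TBC1D genes and 24.2 kb for all genes. The longest TBC1D gene, TBC1D5 at 585 kb, held 1 body peak, in clone 2. With 3 clones a sign-flip test cannot go below 0.25, and none was run on these values.

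RAB27A alone gave part of the higher GTPase values. Its 116 kb (chr15:55202966-55319123, − strand) held 8, 10 and 1 body peaks in clones 1, 2 and 3, or 7.01, 8.76 and 0.876 per 100 kb. All genes of chromosome 15 together had 0.416, 1.85 and 0.0550 per 100 kb. Of 10505 genes with a body over 20 kb, a length chosen after the values were seen, 79, 159 and 272 were at or above RAB27A in clones 1, 2 and 3, RAB27A included. Without RAB27A the GTPases had 0.713, 1.29 and 0.102 per 100 kb, and without all GTPases of chromosome 15 they had 0.667, 1.16 and 0.105, still above the TBC1D genes in each clone. In the plot of peaks along RAB27A, the body peaks lie between chr15:55217707 and chr15:55290662 and leave out the stretches nearest both gene ends. At 1 site (chr15:55224898-55225161 in clone 1) all 3 clones had a peak. The fold there was 3.98 in clone 1, 4.14 and 4.73 at 2 peaks in clone 2, and 3.91 in clone 3. Body sites in all 3 clones were found at 3 other GTPases. RAB7A had one with folds of 3.71, 5.77 and 6.08, RAB3D one with 4.58, 4.62 and 4.25, and RAB20 one with 2.64, 3.35 and 2.29. The RAB3D site lay 2306, 2214 and 2162 bp from the gene end in clones 1, 2 and 3, so the gene was in no clone with 1000 bp. RAB27A, RAB7A, RAB3D and RAB20 were singled out after their values were seen.

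**Figure D5:**
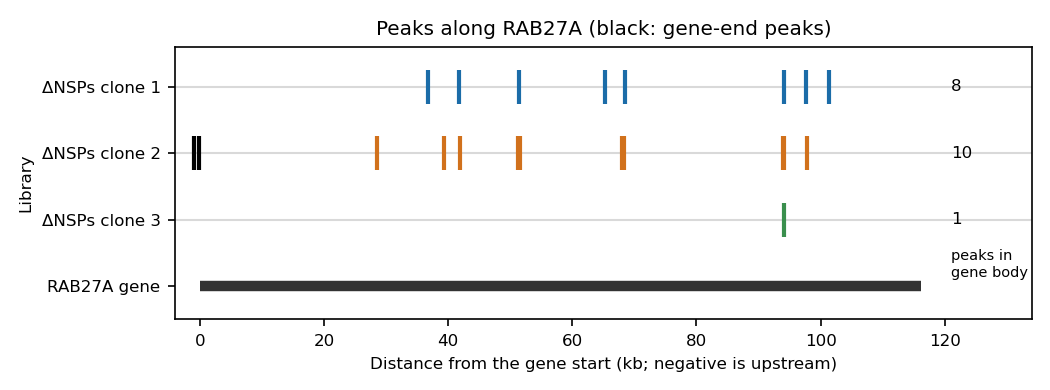
Peaks along RAB27A in the 3 ΔNSPs clones, by distance from the gene start in kb (horizontal axis, negative is upstream); coloured marks are peaks in the gene body, black marks gene-end peaks, the bar is the gene, and the numbers at the right count body peaks. Clones 1, 2 and 3 have 8, 10 and 1 body peaks, and gene-end peaks are seen only in clone 2.

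Promoter sequence was compared over the 300 bases that RefSeq's table gives for each gene, 250 before and 50 after the start it gives. That start was the gene boundary used for the peaks at 72 of 88 genes and lay over 1000 bp from it at 8, RAB13, TBC1D5 and TBC1D19 among them. It held 51 of the 64 GTPases, 35 of the 43 TBC1D genes and both other genes, and 15812 of all 19974. Promoters of the genes in 2 or more clones had a median GC content of 68.0% (n = 30) and a median of 29.5 CpG, against 59.3% and 10 for those in no clone (n = 39). Without TBC1D3 the latter were 60.7% and 15 (n = 29). All protein-coding genes differed in the same direction, with 65.3% and 27 CpG in 2 or more clones and 58.7% and 12 in none. The 10 TBC1D3 promoters in the table were alike, with a GC content of 57.7% to 60.3% and an E-box and a CRE match in all 10.

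Motif matches were counted in the same 300 bases on both strands. ETS letters were in 40.0% of the 30 promoters of genes in 2 or more clones, SP/KLF in 86.7%, NFY in 43.3%, NRF1 in 3.33%, YY1 in 23.3%, E-box in 16.7% and CRE in 53.3%. Over all 15812 promoters these shares were 22.8%, 58.5%, 36.3%, 4.26%, 7.63%, 8.87% and 29.4%. Over the promoters of all genes in 2 or more clones they were 33.0%, 74.1%, 45.2%, 6.86%, 12.4%, 11.7% and 40.7%, nearer to those of the RAB and TBC1D genes for every motif but NRF1. For the 39 promoters of RAB and TBC1D genes in no clone they were 10.3%, 41.0%, 12.8%, 2.56%, 7.69%, 33.3% and 51.3%, in the same order. Without TBC1D3 (n = 29) they were 13.8%, 55.2%, 17.2%, 3.45%, 10.3%, 10.3% and 34.5%. With TBC1D3 counted, E-box was thus more frequent in no clone than in 2 or more, and CRE nearly as frequent. Base composition differs between these sets, and its part in the motif shares was not tested.

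The other genes of the RAB cycle were followed in 4 lists with 108 genes, RAB3IP among them. A gene-end peak in 2 or more clones was found at 32 (29.6%), against 23.3% of all genes. Without clone 1 the number was 5 and without clone 2 it was 6, or 4.63% and 5.56%, and the order turned round, with 5.63% and 6.21% of all genes. Of the exchange factors 14 of 50 were in 2 or more clones, and DENND6A, which activates RAB14, and the TRAPP subunits TRAPPC1 and TRAPPC6A were in all 3. DENND6A had folds of 6.21, 3.18 and 3.63 in clones 1, 2 and 3, TRAPPC1 3.33, 4.29 and 3.00, and TRAPPC6A 2.73, 2.96 and 2.19. DENND6A was highest in clone 1 and the TRAPP subunits in clone 2. GTPase-activating proteins with other names had 4 of 12: EVI5L in all 3 clones, with folds of 2.86, 5.92 and 2.98, and RABGAP1, RABGAP1L and SGSM2 in 2. Effectors, the proteins that bind the GTP form, had 13 of 39, with RILPL2 in all 3 clones at folds of 3.96, 6.80 and 2.56. Chaperones and prenylation enzymes had 1 of 7, the chaperone GDI2.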

How the data were processed

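ATAC-seq peak lists of 6 U937 libraries, 1 list each, were used as deposited. Per the submitters' processing notes the tools were FastQC, Bowtie2, Picard and MACS2 on build GRCh38. The sources used here give no versions or settings and do not say whether reads were shifted for the transposase. The lists the authors deposited give each summit a fold enrichment (a ratio), −log10 p, −log10 q and a score, which was not used. The names of the peaks carry the library, so peaks were called per library. Lines with the same interval were taken as 1 peak with its highest summit, and a summit offset below 0, in 127 lines of clone 2, was set to 0.

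Genes came from a RefSeq table (GRCh38.p14) without strand or exons, and strands and sequences from the RefSeq promoter table. Pile-up k and background b were solved from the fold, as (k + 1)/(b + 1), and from p as the Poisson chance of more than k reads. This matched 100% of 300 peaks within 0.01 of −log10 p. Libraries were compared by exact permutation, and lists by counts beside those of all genes. Matching was checked on simulated peaks: 100% of 200 planted genes among 19974 were found, and 0 peaks placed outside every window were matched. The simulated peaks were placed with the same windows, so only the search for overlaps was checked. Python 3.11.15, pandas 2.3.3, numpy 2.4.6, scipy 1.17.1 and matplotlib 3.10.9 were used.

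Genes named with full values were those in all 3 clones, and, of those in 2, the 5 GTPases and 5 TBC1D genes with the smallest summed ranks of −log10 q. Other genes were named by role list. The genes and lists were chosen with earlier results of these data known. Alternatives varied the window, the gene end, matching by summit, the thresholds, the list length, the gene set, shared windows, the clones required, the libraries and the replicate block.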

Additional observations from a re-analysis of the deposited data

How the results depend on the processing

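With 3 libraries a group and lists of unequal length, the counts depend on clones 1 and 2, and neither read depth nor absence of a peak could be read as openness. The number of GTPases in 2 or more clones, 25, became 2 with a fold of at least 5, 8 with clone lists cut to equal length, 6 in all 3 clones and 40 in 1 or more. It ranged from 6 to 25 when a clone was left out. The number of TBC1D genes, 10, became 6 with gene starts only (35 genes of known strand), 6 with −log10 q of at least 5, 1 with a fold of at least 5, 4 with equal lists, 5 in all 3 clones and 20 in 1 or more, and 5 to 10 when a clone was left out. The other RAB machinery, 32, became 12 with −log10 q of at least 5, 1 with a fold of at least 5, 5 with equal lists, 18 with peaks in no other gene's window, 5 in all 3 clones and 68 in 1 or more, and 5 to 31 when a clone was left out. An alternative chosen after seeing the data kept only clone peaks with a p as small as the strictest control list needed. It gave 22 GTPases, 6 TBC1D genes and 17 machinery genes, or 34.4%, 14% and 15.7%, against 12.7% of all genes. The stricter settings kept fewer peaks, and the part of this in the smaller counts was not tested. With equal lists 12.5% of GTPases, 9.30% of TBC1D genes and 4.63% of the machinery stood against 4.90% of all genes, and with −log10 q of at least 5, 28.1%, 14% and 11.1% against 11.0%. With a fold of at least 5 the shares were 3.13%, 2.33% and 0.926%, against 0.661% of all genes. With gene starts only TBC1D genes were below all genes, 17.1% against 24.0%. Of these 35 TBC1D genes 10 were TBC1D3 copies, which had no peak, so the 6 called lay among the other 25.

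The difference between clones and controls in log10(count + 1) could not turn, since the controls held 0 throughout. It went from 0.672 with a fold of at least 5 (exact permutation p = 0.4) to 1.58 with 2500 bp, and from 1.38 to 1.69 when a library was left out (exact permutation p = 0.2, the smallest possible there). The labels number the libraries within each group but nothing ties the same numbers across groups. With the replicate block, libraries of the same number as pairs, the difference was 1.5 with an exact sign-flip p of 0.25, the smallest possible, and with every control at 0 the pairing could not be checked. The share difference between GTPases and TBC1D genes stayed positive, from 0.303 with a fold of at least 5 to 20.8 percentage points with gene starts only, and from 2.56 to 15.9 when a clone was left out. The value for gene starts included 10 TBC1D3 copies. When that family was dropped from the main setting, the difference was 0.521. With 3 clones its p cannot fall below 0.25. Of the 22 genes named by rule, the number of clones stayed the same at 22 when matched by summit, 21 with 2500 bp (TBC1D20 gained a clone), 20 with 500 bp, 18 of 19 with gene starts only, 16 with the p of the control lists, 15 with peaks in no other gene's window, 12 with −log10 q of at least 5, 9 with equal lists and 1 with a fold of at least 5. Every other change was to fewer clones.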
